A study of Ovis aries with 26 samples.

Results

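ARGFX, DUXB and OTX2 are homeobox genes of the PRD class, and their RNA was followed here from the sheep oocyte to the expanded blastocyst. They were chosen by symbol, 3 genes of the 30186 in the deposited table, and each has a row with values in all 26 libraries. There were 2 libraries of mature oocytes arrested in meiosis II (MII). The other libraries came from embryos fertilized and grown in vitro: 4 libraries of 2-cell embryos (2C), 3 of 4-cell (4C), 4 of 8-cell (8C) and 3 of 16-cell embryos (16C), 3 of morulae, 3 of early blastocysts (EarlyB) and 4 of blastocysts that had expanded (ExpB). The labels name no breed, genotype or treatment, and give neither the number of oocytes or embryos per library nor whether replicates came from separate animals or cultures. The p-values below thus weigh differences only against the spread among these libraries, which the main tests pool for each gene over all 8 stages. That spread may be technical. Levels are FPKM, which scale the fragments of a gene to its length and to the library's depth, so that genes of different length can be set side by side.

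The PRD class takes its name from the fly gene paired, and its members encode DNA-binding proteins with a homeodomain. ARGFX belongs to a group of divergent homeobox genes that arose in placental mammals by duplication of an OTX-family gene, CRX, and is known in human and cattle embryos from the period in which the embryonic genome is switched on. DUXB belongs to the double-homeobox genes, whose proteins carry a pair of homeodomains, and DUX4, its relative, is known as an early activator of embryonic genes in human. OTX2 is the conserved member of the 3. It is best known for patterning the head and forebrain, and in mouse for the passage of epiblast cells out of naive pluripotency.

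The reads behind each library's FPKM, recovered from the steps of the low values, numbered 27.2 to 35.6, in units of 1e6 reads, from MII to 16C. Morulae had 25.9 to 30.4, EarlyB libraries 16.0 to 19.9 and ExpB libraries 19.3 to 25.4 of these units. Limits drawn from these reads cover counting error only. One read was worth between 0.0325 and 0.072 FPKM for ARGFX, between 0.0299 and 0.0662 for DUXB and between 0.0127 and 0.0281 for OTX2. The gene lengths that make the values whole reads were 865 bases for ARGFX, 942 for DUXB and 2218 for OTX2. Of 16 oocyte markers, 15 were measured, and their summed FPKM was 9587 to 11072 in MII and 17.1 to 31.6 in ExpB, while the 9 measured of 10 trophectoderm markers summed to 12.5 to 15.4 in MII and to 3325 to 7510 in ExpB.

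All 3 genes were low before the 16-cell stage, at 2.25 FPKM or less in every library. ARGFX stood at 0.298 and 0.561 in the MII libraries, at 0.2295, 0.108, 1.45 and 1.08 in 2C, at 0.572, 0.436 and 0.188 in 4C and at 0.0975, 2.25, 0.752 and 1.02 in 8C. Over these 13 libraries that is between 3 and 66 reads. No library was at 0, and 4 were at 1 FPKM or more. OTX2 stood at 0.0497 and 0 in MII, at 0.32, 0.056, 0.0276 and 0 in 2C, at 0, 0.085 and 0 in 4C and at 0.342, 0.0133, 0.572 and 0.625 in 8C. It had no read in 4 of the 13 libraries and 47 reads at most. DUXB stood at 0 in both MII libraries, at 0, 0.165, 0.0649 and 0.257 in 2C, at 0.0926, 0.834 and 0.0691 in 4C and at 0.0299, 0.407, 0 and 0.344 in 8C, with 25 reads at most. The libraries of neighbouring stages overlap for each gene in this span. None of the 3 genes was called between 2C and MII, 4C and 2C or 8C and 4C in limma's moderated two-sided test, where a call needed a Benjamini-Hochberg adjusted p under 0.05 over all 15766 tested genes and a difference of at least 1 on the log2(FPKM + 1) scale. The largest of these differences was that of ARGFX at 8C against 4C, 0.44 ± 0.71 (SE, limma adjusted p = 0.92). For DUXB and OTX2 no call was possible in this span. Both stayed under 1 FPKM in all 13 libraries, so no difference on this scale could reach 1. OTX2 had 114 reads over the 8C libraries and 6 over those of 4C, 13.7-fold apart in mean FPKM. Across the genome 4.44% of tested genes were called higher and 2.01% lower at 2C against MII, 0.00634% and 0% at 4C against 2C, and 0.577% and 0.33% at 8C against 4C. These early shares rest on few libraries. At 2C against MII 700 genes were higher and 317 lower, but 161 and 51 without MII 1 and 908 and 513 without MII 2. At 4C against 2C 1 was higher and 0 lower, and with any 1 library left out the counts ran from 1 to 44 and from 0 to 11, the most higher without 2C 1 and the most lower without 4C 1. At 8C against 4C 91 were higher and 52 lower. They were 1 and 5 without 4C 1, 7 and 5 without 8C 4, and 57 and 20 without 4C 3. They were 149 and 82 without 4C 2, 163 and 54 without 8C 1, 113 and 85 without 16C 1, and 147 and 109 without 16C 3.

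**Figure D1:**
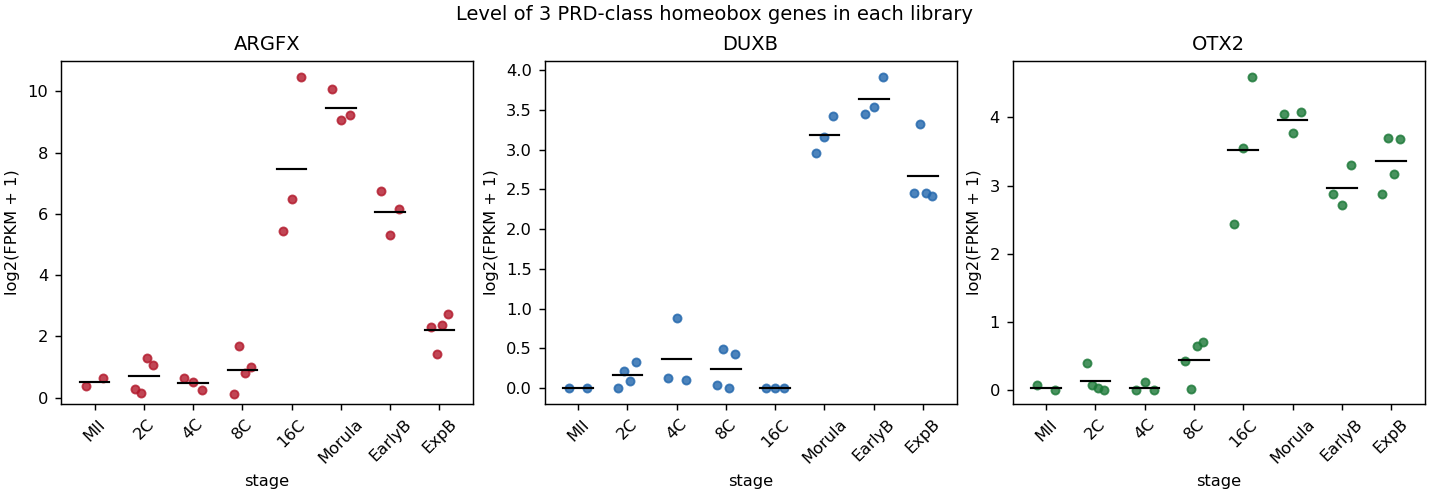
Level of ARGFX, DUXB and OTX2 as log2(FPKM + 1), vertical axis, in each of 26 libraries (points) by stage, with the stage mean of the log values as a bar; the vertical scale differs between panels. ARGFX and OTX2 leave the baseline at 16C. DUXB is at 0 in the 3 libraries of 16C and leaves the baseline in morulae. ARGFX is at 1.68 to 5.68 FPKM in ExpB.

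At the 16-cell stage ARGFX rose steeply. The libraries are bulk samples, in which fewer cells holding a transcript and less RNA per cell cannot be told apart. The 16C libraries held 42.5, 88.9 and 1417 FPKM, which is 1264, 2335 and 39405 reads, against 0.0975 to 2.25 FPKM in 8C. Each of the 3 libraries was above every earlier one, and they were far from each other: 16C 3 lay 33.3-fold above 16C 1. The mean was 516 ± 780.3 at 16C (SD, n = 3) and 1.03 ± 0.901 at 8C (SD, n = 4), a difference of 6.55 ± 0.71 on the log2(FPKM + 1) scale (SE, limma adjusted p = 4.79e-07). Against 4C, where the mean was 0.399 ± 0.194, the difference was 6.99 ± 0.76 (limma adjusted p = 6.59e-07). Without 16C 3 the 16C mean was 65.7 ± 32.8 and the difference from 8C 5.05 ± 0.45 (limma adjusted p = 5.72e-08). Fitted with the 2 stages alone, the difference missed the threshold (limma adjusted p = 0.0524 against 8C and 0.0947 against 4C; over its 33 alternatives the adjusted p ran from 3.77e-08 to 0.0524 and from 3.8e-08 to 0.0947).

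OTX2 rose at the same step, to a level below that of ARGFX in every 16C library. Its 16C libraries held 4.43, 10.7 and 23.2 FPKM, or 338, 719 and 1654 reads, against 0.0133 to 0.625 FPKM in 8C, and the stages did not overlap. The mean was 12.8 ± 9.55 at 16C (SD, n = 3) and 0.388 ± 0.278 at 8C (SD, n = 4), 32.9-fold apart, with a difference of 3.08 ± 0.32 on the log2(FPKM + 1) scale (SE, limma adjusted p = 2.6e-07). Without 16C 3 the 16C mean was 7.55 ± 4.41, 19.5-fold above 8C, and the difference 2.54 ± 0.27 (limma adjusted p = 7.82e-07). Against 4C it was 3.49 ± 0.34 (limma adjusted p = 1.45e-07), a call that ended when the 2 stages alone were fitted (limma adjusted p = 0.073; 1.63e-09 to 0.073 over its 33 alternatives). Of all tested genes 5.54% were called higher and 2.01% lower at 16C against 8C, and 5.35% and 2.84% against 4C. Without 16C 1 the genes called lower against 8C numbered 535, against 317 with all libraries. With 2 of the 3 homeobox genes called higher in both, DUXB was the exception: it had no read in any 16C library. At the depth of those libraries, 3 reads, the limit that a count of 0 allows for counting error alone, would be 0.0926 to 0.105 FPKM. The sums of some marker lists moved at this step too. The 10 epiblast markers summed to 104 to 185 FPKM in 16C and 66.1 to 85.1 in 8C, with TDGF1 at 0 in 16C, and the 15 oocyte markers to 4592 to 5746.5 in 16C and 6356 to 9416 in 8C. Neither sum overlapped between the stages, and their part in the rise of ARGFX and OTX2 was not tested. Of the 9 epiblast markers tested, 2 were called higher, ZFP42 and PRDM14, and 0 lower. ZFP42 averaged 46.6 FPKM in 16C and 0.341 in 8C, and SALL4, not called, 74.0 and 70.7. The primitive endoderm sum was 7.4 to 14.0 in 16C and 7.92 to 10.9 in 8C, and the trophectoderm sum 9.04 to 11.5 in 16C and 9.87 to 13.5 in 8C, both with overlap. The sums of the cumulus, sperm and blood lists overlapped as well: 16.7 to 22.5 FPKM in 16C and 13.5 to 26.3 in 8C for cumulus and granulosa cells, 4.63 to 8.49 in 16C and 7.0 to 9.69 in 8C for sperm, and 0.0945 to 0.358 in 16C and 0.046 to 1.13 in 8C for blood.

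DUXB rose at the next stage, the morula. Morulae held 6.8, 7.96 and 9.72 FPKM of it, from 176 to 237 reads, against 0 in each of 16C 1, 16C 2 and 16C 3. The mean in morulae was 8.16 ± 1.47 (SD, n = 3), and the lowest morula was at least 64.8-fold higher than 3 reads in a 16C library. The fitted difference was 3.18 ± 0.24 on the log2(FPKM + 1) scale (SE, limma adjusted p = 2.68e-10), and it was 2.94 ± 0.22 against 8C (limma adjusted p = 1.03e-10), where the mean was 0.195 ± 0.21. Morulae against 16C was, of the 7 successive steps, the one with the most genes called, with 28.1% of tested genes called higher and 15% lower. Against 8C these shares were 30.6% and 19.1%. The sums of all 7 marker lists moved at the same step, none with overlap. The trophectoderm sum was 76.8 to 126 FPKM in morulae and 9.04 to 11.5 in 16C. Of its 9 markers 3 were called higher, KRT8, KRT18 and TEAD4, and 0 lower. KRT8 alone averaged 67.8 in morulae, while CDX2 was at 0 in 16C and at 0.0119 in the mean of morulae. The epiblast sum was 219 to 291 in morulae and 104 to 185 in 16C, and the primitive endoderm sum 20.3 to 25.5 in morulae and 7.4 to 14.0 in 16C. The oocyte sum was 578 to 799 in morulae and 4592 to 5746.5 in 16C, and the cumulus and granulosa sum 9.16 to 12.7 in morulae and 16.7 to 22.5 in 16C. The summed FPKM of 9 of 10 sperm markers was 18.1 to 24.3 in morulae and 4.63 to 8.49 in 16C, with PRM2 at 9.02 in the mean of morulae, at 0 in 16C, and PRM3 at 0 in morulae. The 8 of 9 blood markers summed to 3.82 to 9.03 in morulae and 0.0945 to 0.358 in 16C. The part of these lists in the rise of DUXB was not tested. In the reference gene table the DUXB span overlaps the gene TERF2IP, not analysed here, and the use of strand in the counting is not given in the sources used here.

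In morulae ARGFX reached its highest mean, in a further step that was less sure. The libraries held 1069, 537 and 598 FPKM, 734.6 ± 291 (SD, n = 3), against 42.5, 88.9 and 1417 at 16C, and the highest single value of the series belongs to 16C 3. The difference was 1.99 ± 0.76 (SE, limma adjusted p = 0.026). It was 3.49 without 16C 3 (limma adjusted p = 1.34e-06) and 0.97, 1.5 and 1.68 without 16C 1, 16C 2 or Morula 1 (limma adjusted p = 0.251, 0.128 and 0.0954), so that the size of this step rests on single libraries. It passed in 25 of 33 alternatives, with an adjusted p from 1.34e-06 to 0.261. OTX2 stood at 15.5, 12.7 and 15.9 FPKM in morulae, 14.7 ± 1.75 (SD, n = 3), inside the range of the 16C libraries, with a difference of 0.44 ± 0.34 that was not called (limma adjusted p = 0.27). Without 16C 3 it was 0.97 and without 16C 1 it was -0.1, and neither was called.

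**Figure D2:**
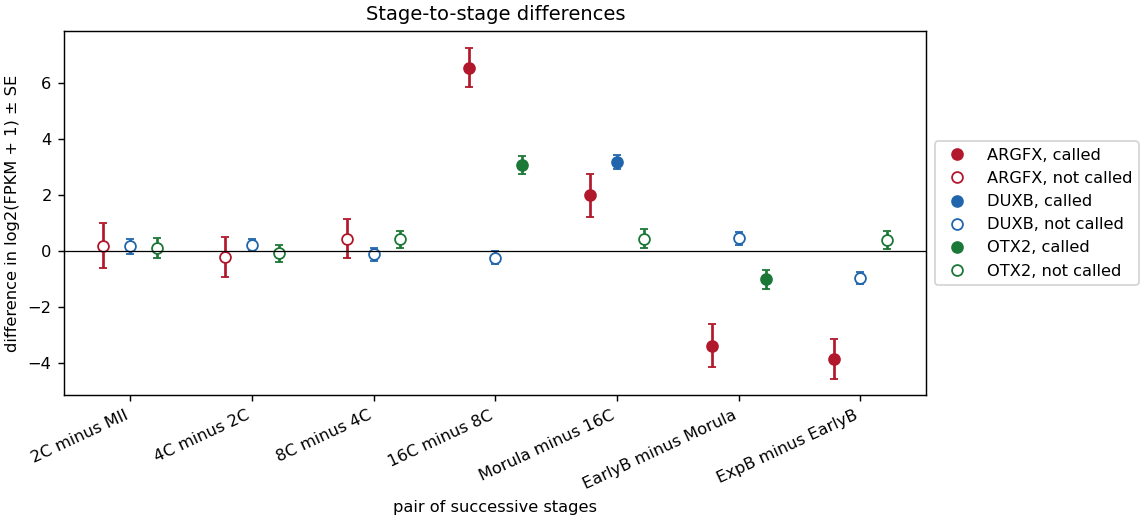
Difference in log2(FPKM + 1) between each stage and the one before it, with its standard error from limma, for ARGFX (red), DUXB (blue) and OTX2 (green); filled points were called and open ones were not. The steps above 3 are 16C minus 8C for ARGFX and OTX2 and Morula minus 16C for DUXB, and the steps below -3 are those of ARGFX in the blastocyst.

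In the blastocyst the 3 genes parted. ARGFX fell to 106, 38.6 and 70.5 FPKM in EarlyB and to 3.95, 1.68, 4.21 and 5.68 in ExpB. The EarlyB mean of 71.85 ± 33.9 (SD, n = 3) was 10.2-fold below that of morulae, a difference of -3.38 ± 0.76 (SE, limma adjusted p = 0.000839). The ExpB mean of 3.88 ± 1.65 (SD, n = 4) was 18.5-fold below EarlyB, a difference of -3.86 ± 0.71 (limma adjusted p = 0.00017). Neither pair of stages overlapped. From morulae to ExpB the difference came to -7.24 ± 0.71 (limma adjusted p = 1.18e-08), 189-fold in the means. The ExpB libraries still held 37 to 125 reads. Their level was not called apart from 8C (1.3 ± 0.65, limma adjusted p = 0.078) or MII (1.7 ± 0.80, limma adjusted p = 0.064). It was called higher than 4C (1.74 ± 0.71, limma adjusted p = 0.032) and 2C (1.51 ± 0.65, limma adjusted p = 0.041). The spread of 16C 3 enters these errors: without it the SE in ExpB against EarlyB was 0.395.

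OTX2 stayed in the blastocyst at levels inside the range of the 16C libraries. It stood at 6.36, 5.56 and 8.84 FPKM in EarlyB and at 6.35, 12.02, 8.03 and 11.9 in ExpB. EarlyB averaged 6.92 ± 1.71 and morulae 14.7 ± 1.75 (SD, n = 3 each), with no overlap and a difference of -1.0 ± 0.34 that lies at the edge of the threshold (limma adjusted p = 0.018). That call ended without Morula 1, Morula 3, EarlyB 1 or EarlyB 2 and with a pseudocount of 0.1 (limma adjusted p = 0.159; 0.0025 to 0.159 over its 33 alternatives). ExpB averaged 9.575 ± 2.84 (SD, n = 4), and it was called apart neither from EarlyB (0.4 ± 0.32, limma adjusted p = 0.34) nor from morulae (-0.61 ± 0.32, limma adjusted p = 0.11). The ExpB libraries overlapped those of EarlyB, and all of them lay below every morula.

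DUXB was at its highest in EarlyB, with 9.93, 10.6 and 14.1 FPKM, 11.55 ± 2.27 (SD, n = 3). These libraries all lay above the morulae, but the difference of 0.45 ± 0.24 was not called (limma adjusted p = 0.12). ExpB libraries held 4.51, 9.06, 4.47 and 4.34 FPKM, 5.59 ± 2.31 (SD, n = 4), below each EarlyB library. That difference, -0.97 ± 0.22, had a limma adjusted p of 0.00139 and fell just short of the required size of 1. Without ExpB 2, which stood above the other 3, it was -1.19 and was called (limma adjusted p = 0.000118; 0.000118 to 0.148 over its 33 alternatives). Of all tested genes 14.7% were called higher and 12.4% lower in EarlyB against morulae. In ExpB against EarlyB the shares were 4.65% and 13.1%, and in ExpB against morulae 12.1% and 21.8%. Of the 3 homeobox genes, ARGFX and OTX2 were called lower at the first of these steps, and ARGFX alone at the second and from morulae to ExpB.

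Markers of the blastocyst's cell types moved over the same steps. The 9 measured of 10 trophectoderm markers summed to 1987 to 2613 FPKM in EarlyB and 76.8 to 126 in morulae. The 10 epiblast markers summed to 188 to 237 in EarlyB and 219 to 291 in morulae, and 10 of 11 primitive endoderm markers to 50.3 to 54.8 in EarlyB, with CER1 at 0, and 20.3 to 25.5 in morulae. Single genes weigh heavily in these sums: ZFP42 averaged 95.5 in EarlyB and 160.9 in morulae, KRT8 1531 and 67.8, and GATA6 34.1 and 17.6. At this step 7 of 9 tested trophectoderm markers were called higher and 0 lower, and 4 of 8 primitive endoderm markers higher and 0 lower. Of 9 epiblast markers 3 were higher (POU5F1, UTF1 and TDGF1) and 1 lower (PRDM14). Of all tested genes 14.7% were higher and 12.4% lower. In ExpB the trophectoderm sum was 3325 to 7510, the epiblast sum 209.8 to 279.8 and the primitive endoderm sum 64.3 to 69.4, each list with no marker at 0. Against EarlyB 4 trophectoderm markers were called higher and 2 lower, and 1 primitive endoderm marker higher and 0 lower. Of the epiblast markers 1 was higher (NANOG) and 1 lower (SOX2), beside 4.65% and 13.1% of all tested genes. The sums of the other lists are given in the order morulae, EarlyB, ExpB: the oocyte sum was 578 to 799, 130.3 to 220.4 and 17.1 to 31.6, the sperm sum 18.1 to 24.3, 16.6 to 19.3 and 7.59 to 9.33, the blood sum 3.82 to 9.03, 1.15 to 1.94 and 0.597 to 2.64, and the cumulus and granulosa sum 9.16 to 12.7, 3.73 to 12.1 and 1.44 to 2.6. Which cells of the blastocyst held the 3 transcripts, and what part these shifts had in their levels, was not tested.

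The balance among the 3 genes turned over. ARGFX made up 89.3% to 98.4% of their summed FPKM in the 16C libraries and 95.9% to 97.95% in morulae. Its share in EarlyB was 70.5% to 86.7%, and ExpB libraries had 7.39% to 26.7%. OTX2 went the other way late, with 42.9% to 54.3% of the sum in ExpB and 1.42% to 2.55% in morulae. DUXB held none of the sum at 16C, 0.623% to 1.56% of it in morulae and 19.8% to 39.8% in ExpB. Per library, ARGFX was 37.7 to 68.8 times OTX2 in morulae and 0.14 to 0.622 times OTX2 in ExpB. Whether the difference of 2 genes in log2(FPKM + 1) changed with stage was tested by a permutation test of its F statistic over the 8 stages. Such a difference also changes when 2 genes rise together to unlike heights. The test therefore cannot tell a different course from a different height. The p was 1e-05, the smallest that 100000 resamples can give, for OTX2 against ARGFX (F = 23.7), OTX2 against DUXB (F = 21.6) and ARGFX against DUXB (F = 24.2), and 1e-05 adjusted over these 3 pairs. The log2 difference of OTX2 from ARGFX was -3.94 ± 1.67 at 16C and -5.49 ± 0.46 in morulae (SD, n = 3 each). It was -3.11 ± 0.67 in EarlyB (SD, n = 3) and 1.15 ± 0.77 in ExpB (SD, n = 4), and was positive in all 4 ExpB libraries.

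**Figure D3:**
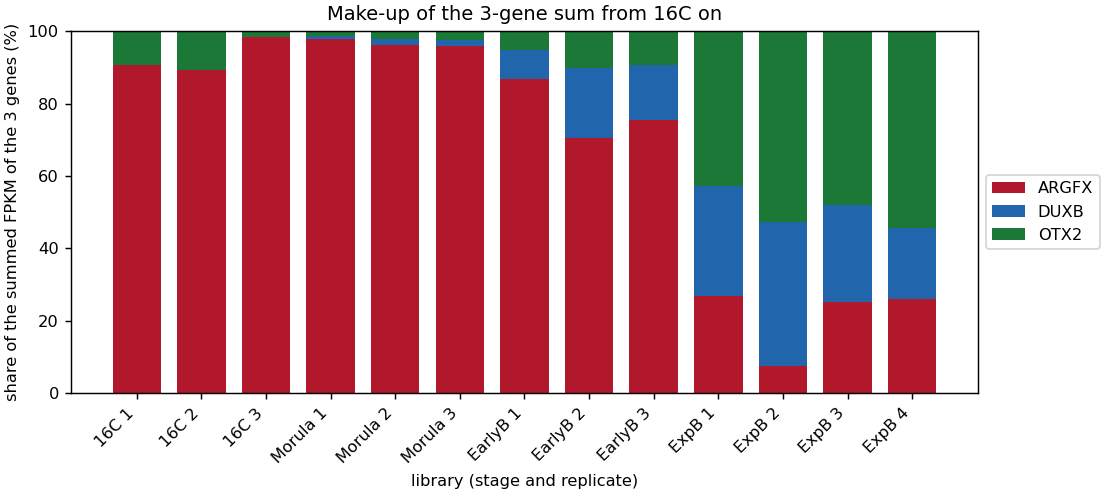
Share of ARGFX (red), DUXB (blue) and OTX2 (green) in their summed FPKM, in percent, for each library from 16C to ExpB. ARGFX takes at least 70.5% up to EarlyB and at most 26.7% in ExpB, where OTX2 is at 42.9% or more in each library.

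Ordered by mean level, ARGFX ran Morula, 16C, EarlyB, ExpB, 8C, 2C, MII and 4C. Of the neighbours in that order, Morula from 16C and EarlyB from ExpB were called apart, while EarlyB from 16C (-1.4 on the log2 scale, limma adjusted p = 0.101), ExpB from 8C and the 4 lowest stages from one another were not. Without 16C 3 the 16C mean falls below that of EarlyB. For DUXB the order was EarlyB, Morula, ExpB, 4C, 8C, 2C, with MII and 16C both at 0, and for OTX2 it was Morula, 16C, ExpB, EarlyB, 8C, 2C, 4C and MII. Each of these genes had 1 break between neighbours, ExpB from 4C for DUXB (2.3 ± 0.22, limma adjusted p = 2.82e-09) and EarlyB from 8C for OTX2 (2.52 ± 0.32, limma adjusted p = 1.91e-07). Among all tested genes 29.9% were called higher and 23.3% lower in ExpB against 4C, and 37.1% and 22% in EarlyB against 8C. For the neighbours not called apart here, the shares were 35.6% and 19.9% for EarlyB against 16C, 29.5% and 25% for ExpB against 8C, 28% and 23% for ExpB against 16C, 0.875% and 0.59% for 8C against 2C, 5.89% and 2.46% for 4C against MII, and 11.8% and 5.47% for 16C against MII. Over the 8 stages together the moderated F test passed for all 3 (limma adjusted p = 2.65e-11 for ARGFX, 4.8e-14 for DUXB and 3.6e-12 for OTX2), as it did for 93.7% of tested genes.

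The spread among the 16C libraries was wide for ARGFX. Its range over them was 5.03 on the log2(FPKM + 1) scale. Of 11458 genes at 1 FPKM or more in a 16C library, 13, or 0.113%, had a range as wide, ARGFX among them. That of OTX2 was 2.15, and 7.28% of these genes reached it. On this scale genes at a low level in every 16C library could not reach such ranges. The shares were not matched for level, so they reflect the height of a gene as well as its spread. ARGFX and OTX2 both had the order 16C 3, 16C 2, 16C 1, from high to low. In 16C 3 ARGFX ranked 32 of all genes by FPKM, and 16C 1 had it at rank 1715. Activation genes differed in how 16C 3 stood to 16C 1. The ratio of 16C 3 to 16C 1 was 8.81 for the sodium phosphate carrier SLC34A2, at 4.42, 2.63 and 39.0 FPKM in 16C 1, 16C 2 and 16C 3, and 5.32 for NR5A2, a nuclear receptor, beside 33.3 for ARGFX and 5.23 for OTX2. It was 3.73 for the histone demethylase KDM5B, 2.56 for TBX3, 2.46 for EIF1AX and 2.32 for KLF5, and between 0.268 and 1.69 for the other 10 of the 16 measured. ZSCAN4, a marker of genome activation, stood at 219, 322 and 249 FPKM in 16C 1, 16C 2 and 16C 3, KLF17, a Krüppel-like factor of the early embryo, at 55.1, 70.4 and 50.1, and TFAP2C, an AP-2 factor, at 12.8, 20.2 and 15.8. Of the 16 measured genes of the zygotic activation list 9 were highest in 16C 3, 5 in 16C 2 and 2 in 16C 1, and of all genes at 1 FPKM or more in a 16C library 37.7% were highest in 16C 3. The mean correlation of 16C 3 with the other 2 libraries of its stage was 0.918, against 0.938 for 16C 1 and 0.943 for 16C 2, and 16C 1 correlated at 0.95 with 8C.

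**Figure D4:**
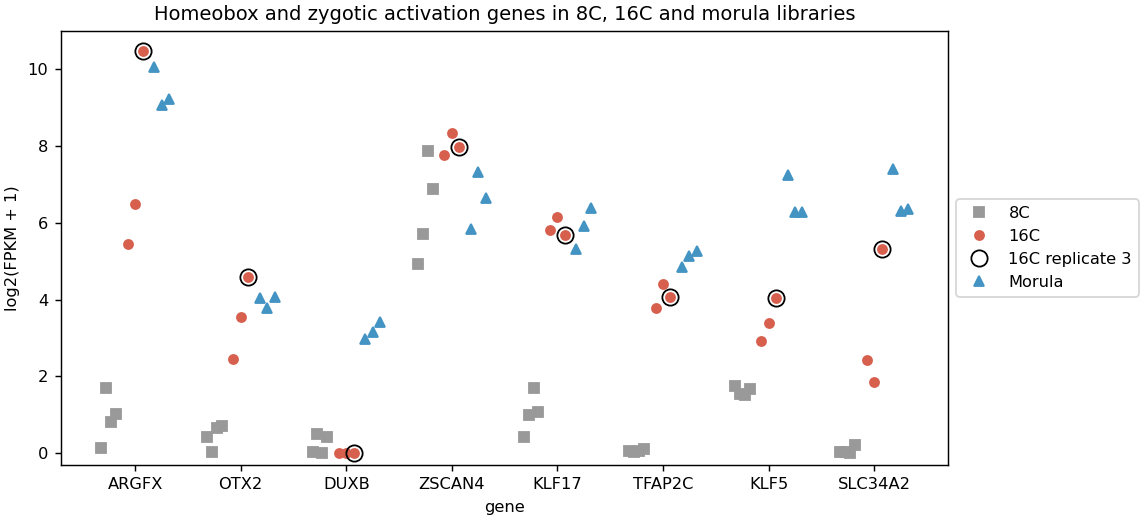
Level as log2(FPKM + 1) of ARGFX, OTX2, DUXB and 5 zygotic activation genes in each 8C (squares), 16C (circles) and morula (triangles) library; the ring marks 16C 3. ARGFX in 16C 3 lies above all 3 morulae and far above the other 16C libraries. ZSCAN4, KLF17 and TFAP2C in 16C 3 lie between or close to the other 16C libraries, whereas SLC34A2, KLF5 and OTX2 are highest in 16C 3 among the 16C libraries. DUXB is at 0 in each 16C library.

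The wider PRD class gave the setting. Of 55 genes on the list 45 are in the table, 44 are above 0 in a library and 22 passed the filter of 1 FPKM in at least 2 libraries, 19 of them besides ARGFX, DUXB and OTX2. Of those 19, 5 were highest in MII, 2 in 8C, 3 in 16C, 5 in morulae and 4 in EarlyB. At 16C against 8C their median difference was 0, beside -0.04 over all tested genes. In morulae against 16C 2 of the 19 were called higher and 6 lower, beside 28.1% and 15% of all tested genes, with a median of -0.09 beside 0.32. Without 16C 3, DPRX was called higher as well. SEBOX, an oocyte gene in mouse, was the clearest of those that rose: 18.6, 19.3 and 28.9 FPKM in morulae and 0.038, 0.183 and 0.437 in 16C, a difference of 4.24 ± 0.18 (limma adjusted p = 1.38e-13). ALX1, a craniofacial factor, fell to 3.21 in the mean of morulae, against 28.8 at 16C, and HOPX, a small homeodomain protein that does not bind DNA, to 11.01, against 60.7.

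Of the genes closest to the 3 by descent, DPRX, another of the divergent genes, stood at 0 in 16C 1 and 16C 2 and at 2.29 in 16C 3, and at 0.477, 1.64 and 2.94 in morulae. It was called higher in morulae against 8C, where it was at 0 (fitted difference 1.31 ± 0.35, limma adjusted p = 0.00185), and lower in ExpB against morulae (-1.16 ± 0.35, limma adjusted p = 0.00672). CRX, a photoreceptor factor of the OTX family, was at 0 up to 16C, at 0.404, 2.12 and 0 in morulae and at 1.31, 0 and 0 in EarlyB, and it was not called at any of the 10 steps tested. OTX1 had 2.28 FPKM in 16C 2 and 0.715 or less in all other libraries, and did not pass the filter. In EarlyB against morulae 2 of the 19 other PRD genes were called higher and 3 lower, beside 14.7% and 12.4% of all tested genes. In ExpB against EarlyB 0 were higher and 5 lower, beside 4.65% and 13.1%. GSC, known from the gastrula organizer, rose to 3.29 in the mean of EarlyB, against 0.157 in morulae (limma adjusted p = 1.11e-08), and fell to 0.784 in ExpB.

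**Figure D5:**
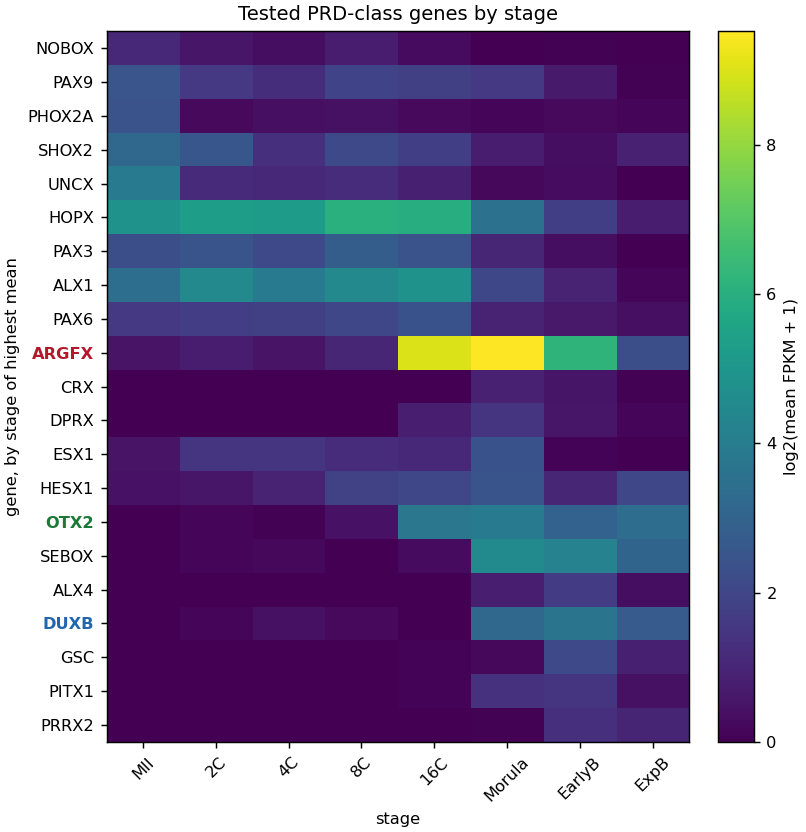
Mean level of tested PRD-class genes by stage, as log2(mean FPKM + 1), sorted by the stage of the highest mean; the 3 genes described are in colour. ARGFX at 16C and in morulae (516 and 734.6 FPKM) is the brightest row, and the means of SEBOX and DUXB first pass 1 FPKM in morulae.

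The list of genes known from zygotic genome activation was chosen with earlier results of these data known, so its counts are a description only. These genes set the same steps in context, 16 of 25 on the list being in the table and tested. At 16C against 8C 8 were called higher and 0 lower (6 and 0 without 16C 3), beside 5.54% and 2.01% of all tested genes, with a median difference of 1.16 beside -0.04 over all tested genes. KLF17 rose to 58.6 FPKM in the mean of 16C, against 1.18 at 8C (4.83 ± 0.32, limma adjusted p = 3.21e-10), and TFAP2C to 16.3, against 0.0471 (4.02 ± 0.15, limma adjusted p = 1.23e-14). ZSCAN4 was called higher already at 8C against 4C, 108 and 6.11 FPKM in the means (4.55 ± 0.71, limma adjusted p = 0.0063). ARGFX was not called at that step. OTX2 could not be, since at 0.625 FPKM or less in these libraries it could not differ by 1. The ZSCAN4 call ended with the 2 stages alone (limma adjusted p = 0.201) and without 4C 1 (0.0698). It held in the other 9 of 11 alternatives added after the data were seen (9.14e-05 to 0.201 over all 11). In morulae against 16C 8 were called higher and 0 lower (10 and 0 without 16C 3), beside 28.1% and 15% of all tested genes, with a median of 1.14 beside 0.32 over all tested genes. In EarlyB against morulae 3 of the 16 were higher and 5 lower, beside 14.7% and 12.4% of all tested genes, and in ExpB against EarlyB 0 and 5, beside 4.65% and 13.1%. ZSCAN4 and KLF17 were among the lower ones at both, and they stood at 0.203 and 0.752 in the mean of ExpB.

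The genes whose log2(FPKM + 1) was most like each of the 3 over the 26 libraries were taken from 11354 named genes by Pearson correlation, as a description, since libraries of a stage share its whole transcriptome. For ARGFX they were USPL1 (r = 0.971), a SUMO protease of Cajal bodies, JMY (0.961), which nucleates actin and coactivates p53, the zinc finger gene ZNF394 (0.958), BIRC3 (0.957), an inhibitor of apoptosis, and SERINC4 (0.953). USPL1 stood at 18.6 FPKM in the mean of 16C and 37.9 in that of morulae and ZNF394 at 13.0 and 34.2, against 516 and 734.6 for ARGFX. For DUXB they were GPBAR1 (0.983), a bile acid receptor, PHLDA3 (0.979), a p53 target, ANKLE2 (0.977), a nuclear envelope protein, SEBOX (0.976) and TMEM207 (0.973). TMEM207 was at 0 in the mean of each stage up to 16C and at 13.8 in morulae. For OTX2 they were DESI2 (0.976), HNRNPA1 (0.975), an RNA-binding protein, SLC31A1 (0.975), a copper carrier, DUSP11 (0.973), an RNA phosphatase, and PTGES3 (0.971), a cochaperone of HSP90. Without 16C 3 these correlations lay between 0.944 and 0.982. Among the 3 themselves r was 0.832 for ARGFX with OTX2, 0.699 for OTX2 with DUXB and 0.525 for ARGFX with DUXB. In the ranking for ARGFX, OTX2 stood at place 226.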

How the data were processed

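Poly(A) RNA of sheep oocytes and embryos was amplified by the Smart-seq2 method and sequenced, per the labels' protocols. The authors deposited 1 table of FPKM values for 30186 genes in 26 libraries. The tools featureCounts 2.0.1, HISAT2 2.1.0, fastp 0.23.4 and SAMtools 1.9 were named, per the submitters' processing notes. The genome build, like the strand setting, is not given in the sources used here. No coordinates are therefore printed. Libraries were grouped by the stage in their titles.

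From the deposited FPKM, log2(FPKM + 1) was fitted with limma 3.58.1 in R 4.3.3, with 8 stage means over 26 libraries and a mean-variance trend, for the 15766 genes at 1 FPKM or more in at least 2 libraries. A gene was called at a Benjamini-Hochberg adjusted p under 0.05 and a difference of at least 1. The procedure was tested on simulated data. Depth came from the steps between low FPKM values, of which 99.7% to 100.0% were whole within 0.05 reads, and gene lengths from the same steps. The difference of 2 genes in log2(FPKM + 1) was compared between stages by a permutation test with 100000 resamples. Smart-seq2 reads carry no molecular identifier, so reads are not independent molecules. FPKM sums ran from 419071 to 682165, and the scale of all genes together can shift between stages.

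Named were the 3 genes, tested PRD-class genes (1 of which is not reported here), called genes of the activation list, and the 5 genes best correlated with each of the 3. The genes and lists were chosen with earlier results of these data known. Alternatives were another pseudocount, no filter, other scalings, the 2 stages alone, a replicate block and leaving out each library. List counts and ratios without 16C 3, and the settings for ZSCAN4, were added after the data were seen.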

Additional observations from a re-analysis of the deposited data

Results flagged for a closer look

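DUXB in the second ExpB library, at 9.056 FPKM, stood far from the other 3 libraries of its stage, which held 4.34 to 4.51. Its gap to the nearest of them was 0.965 of the range of the stage. Of 9 groups of 4 libraries checked, this was the 1 that stood out. Chance alone gives about 1 in 20 for each single group, and thus more over all 9. Without this library the ExpB mean was 4.44 ± 0.0887 (SD, n = 3). In the same library OTX2 was the highest of its stage at 12.02 FPKM and ARGFX the lowest at 1.68.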

How the results depend on the processing

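Of the results under each alternative, the direction and the side of the threshold were the same in 36 of 36 with median-ratio scaling, 35 of 36 on the TPM scale, 35 of 36 with quantile normalization, 34 of 36 with a pseudocount of 0.1, 32 of 33 with no filter, 26 of 30 with only the 2 stages compared, and 922 of 936 with a library left out; the cause of the exceptions was not tested. The labels do not say whether replicate numbers pair the libraries. Deviations from stage means correlated between -0.146 and 0.396 over 80 same-numbered pairs (median 0.004). Over 214 pairs of different number they correlated between -0.396 and 0.338 (median -0.005). Deviations within a stage cancel out, so these correlations cannot exclude a pairing. With the replicate block 31 of 33 results were the same. In 2C minus MII the difference turned to -0.18 for ARGFX (0.19 without the block) and to -0.0663 for OTX2 (0.09 without it).

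ARGFX in Morula minus 16C missed the threshold at 2.0 with a pseudocount of 0.1 (limma adjusted p = 0.0756), at 1.99 with no filter (0.0511), at 1.61 on the TPM scale (0.0826), at 1.49 with quantile normalization (0.109) and at 1.99 with the 2 stages alone (0.261). With the 2 stages alone it also did in 16C minus 8C (6.55) and 16C minus 4C (6.99), and OTX2 did in 16C minus 4C (3.49). OTX2 in EarlyB minus Morula missed it at -1.1 with a pseudocount of 0.1.

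With libraries left out, ARGFX ran from 0.97 to 3.49 in Morula minus 16C and from -0.0075 to 0.37 in 2C minus MII, negative without 2C 3. OTX2 ran from -1.17 to -0.88 in EarlyB minus Morula and from -0.10 to 0.97 in Morula minus 16C, negative without 16C 1. DUXB ran from -1.19 to -0.83 in ExpB minus EarlyB, called without EarlyB 1, EarlyB 2 or ExpB 2. It ran from -0.0481 to 0.34 in 4C minus 2C and from -0.26 to 0.13 in 8C minus 4C, both turned without 4C 2.

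Calls over all genes moved with the scaling. In Morula minus 16C 4437 genes were higher and 2364 lower, with 3054 and 3263 after quantile normalization, which moved the median of all genes to -0.01 (0.32 before). In ExpB minus EarlyB the counts were 733 and 2060, with 1225 and 915 after median-ratio scaling (median -0.08, and -0.30 before). In 16C minus 8C they were 874 and 317, with 1003 and 768 on the TPM scale, and 251 and 65 with the 2 stages alone. In 2C minus MII they were 700 and 317, with 413 and 600 after median-ratio scaling. Low read numbers limit what can be said of DUXB and OTX2 before 16C, where 4 of 13 libraries had no read of each.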
